A study of Mus musculus with 6 samples.

Results

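*Lyve1* and *Gpr182*, 2 genes of the endothelium that lines the liver sinusoids, were picked by symbol from the 3201 genes of the deposited table, and both were found there. Values came from whole livers of male mice on a C57BL/6 background, whose age is not given in the sources used here. The control group was 3 livers of *Fgf18* f/f mice, which carry the floxed allele, and the other group was 3 livers of *Fgf18* ΔHSC mice, in which Cre driven by the GFAP promoter was used to delete *Fgf18* in hepatic stellate cells (HSCs). All 6 livers had undergone hepatic ischemia-reperfusion (I/R), with 1 h of ischemia and 6 h of reperfusion, so no uninjured liver enters the comparison. The labels of the control livers give the treatment in place of a genotype, which was taken from the study, and the labels were not checked against *Fgf18*, whose values were not analysed here.

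Liver sinusoidal endothelial cells form a fenestrated lining between blood and hepatocytes and clear macromolecules from the blood by endocytosis. HSCs lie directly beneath them. *Lyve1* encodes a membrane receptor for the matrix polysaccharide hyaluronan, used as a marker of lymphatic vessels and of sinusoidal endothelium, and some tissue macrophages also carry it. *Gpr182* encodes a G protein-coupled receptor family member of endothelial cells that binds and removes chemokines.

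Both genes had higher values in *Fgf18* ΔHSC livers than in *Fgf18* f/f livers after I/R. The mean level of *Lyve1* was 2.24-fold higher and that of *Gpr182* 3.61-fold higher, and no *Fgf18* ΔHSC liver overlapped with an *Fgf18* f/f liver for either gene. Values are taken here as TPM, a unit of reads per length of gene scaled within each library, and can be compared between genes. The table does not name its unit, and FPKM, the other common unit per length, could differ by 1 factor per liver, which leaves ratios between genes of the same liver as they are. The table keeps only genes that had passed a fold and p limit when the authors compared these same livers, so both genes had been selected for a difference, and the tests below are not independent of that selection. In whole-liver RNA scaled within each library, more endothelial cells, more RNA of a gene per cell and less RNA from other cells cannot be told apart.

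*Lyve1* (ENSMUSG00000030787) lies on the minus strand of chromosome 7 of GRCm38, from 110850607 to 110863239, with 6 exon blocks that join to 2919 bases, and no other annotated gene overlaps it. Its level was 10.4, 10.8 and 12.3 TPM in *Fgf18* f/f livers 1 to 3 and 23.3, 19.6 and 32.0 TPM in *Fgf18* ΔHSC livers 1 to 3. The control livers lay close together, and *Fgf18* ΔHSC liver 3 stood highest. The group levels were 11.2 ± 0.995 TPM (SD, n = 3) and 24.9 ± 6.39 TPM (SD, n = 3), a log2 fold change of 1.13 on the log2(TPM + 0.1) scale (SE 0.18, adjusted p = 0.000697 by limma). The recovered reads behind these values numbered 646 to 814 in the control livers and 872 to 1848 in the *Fgf18* ΔHSC livers, computed from the level and the exon length. The exact Poisson 95% intervals, which cover counting error only, were 22.1 to 24.5, 18.3 to 20.9 and 30.6 to 33.5 TPM in the *Fgf18* ΔHSC livers. None of these overlaps another, but they leave out the variation between livers and between libraries. Among the control livers, only the intervals of liver 1 (9.71 to 11.2 TPM) and liver 3 (11.4 to 13.3 TPM) did not overlap.

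*Gpr182* (ENSMUSG00000058396) lies on the minus strand of chromosome 10, from 127747276 to 127751732, with 2 exon blocks that join to 3954 bases. Of these, 74 bases are also exon of *Zbtb39* on the opposite strand, and the strand setting of the counting is not given in the sources used here. *Gpr182* had 0.557, 0.602 and 0.80 TPM in *Fgf18* f/f livers 1 to 3 and 2.0, 2.65 and 2.43 TPM in *Fgf18* ΔHSC livers 1 to 3. The highest control liver stood well under the lowest *Fgf18* ΔHSC liver, and *Fgf18* ΔHSC liver 2, the lowest of its group for *Lyve1*, was the highest for *Gpr182*. The group levels were 0.653 ± 0.129 TPM (SD, n = 3) and 2.36 ± 0.330 TPM (SD, n = 3), a log2 fold change of 1.71 (SE 0.20, adjusted p = 0.000131 by limma). The reads numbered 53 to 59 per control liver and 160 to 190 per *Fgf18* ΔHSC liver. With so few reads the counting intervals were wide. Those of the 3 control livers all overlapped, from 0.424 to 1.04 TPM, and those of the 3 *Fgf18* ΔHSC livers all overlapped, from 1.71 to 3.09 TPM, so the order of livers within a group is not resolved for *Gpr182*.

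**Figure D1:**
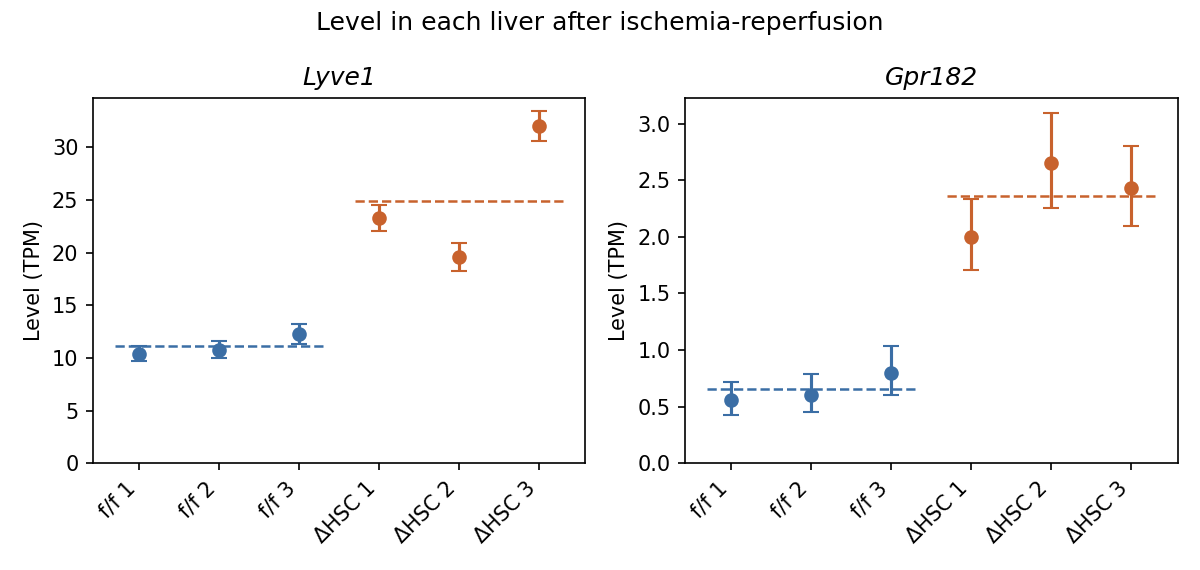
Level of *Lyve1* (left) and *Gpr182* (right) in TPM in each of the 6 livers, with exact Poisson 95% intervals from recovered reads (counting error only) and dashed lines at the group means. For both genes all 3 *Fgf18* ΔHSC livers lie above all 3 *Fgf18* f/f livers, and the *Lyve1* values of the *Fgf18* ΔHSC livers are spread from 19.6 to 32.0 TPM.

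A gene was called where limma's p, adjusted over the whole table of 3201 genes, was under 0.05 and the log2 fold change exceeded 1 in size, and both genes were called higher. Of all listed genes 71.7% were called, 41.6% as higher and 30% as lower, and the groups did not overlap in 96.3%, with the *Fgf18* ΔHSC livers on top in 62%, so a call or a clean separation was the usual outcome in this table. The share called higher went with the level of the genes. Among the 277 genes whose mean level over the livers was within 2-fold of that of *Lyve1* (18.1 TPM) it was 17%, and among the 730 genes within 2-fold of *Gpr182* (1.51 TPM) it was 57%. The median log2 fold change over all listed genes was 0.88. *Lyve1* exceeded it by 0.25 and *Gpr182* by 0.83. With 0.1 TPM added, *Gpr182* had a larger log2 fold change than 91.2% of the listed genes and *Lyve1* than 67.8%. With 0.01 TPM added instead, the median was 1.24, above *Lyve1* (1.13) and below *Gpr182* (1.84). With 1 TPM added it was 0.18, under both *Lyve1* (1.07) and *Gpr182* (1.02). Among genes that averaged at least 1 TPM, with 0.1 TPM added, it was -1.05.

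Both calls depended on the scaling of the livers. When livers were rescaled so that the median gene of the table stood at the same relative level in each, which shifted log2 fold changes by a median of -0.74, *Lyve1* had a log2 fold change of 0.25 (SE 0.17, adjusted p = 0.205 by limma) and *Gpr182* one of 0.91 (SE 0.22, adjusted p = 0.00515 by limma), and neither was called, *Gpr182* for its fold change alone. In rescaled livers the median log2 fold change over all listed genes was 0.30, above that of *Lyve1* and below that of *Gpr182*. Without *Fgf18* ΔHSC liver 3 the log2 fold change of *Lyve1* was 0.93 (adjusted p = 0.00115 by limma), under the limit of 1. *Gpr182* stayed between 1.62 and 1.85 with each liver left out in turn.

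**Figure D2:**
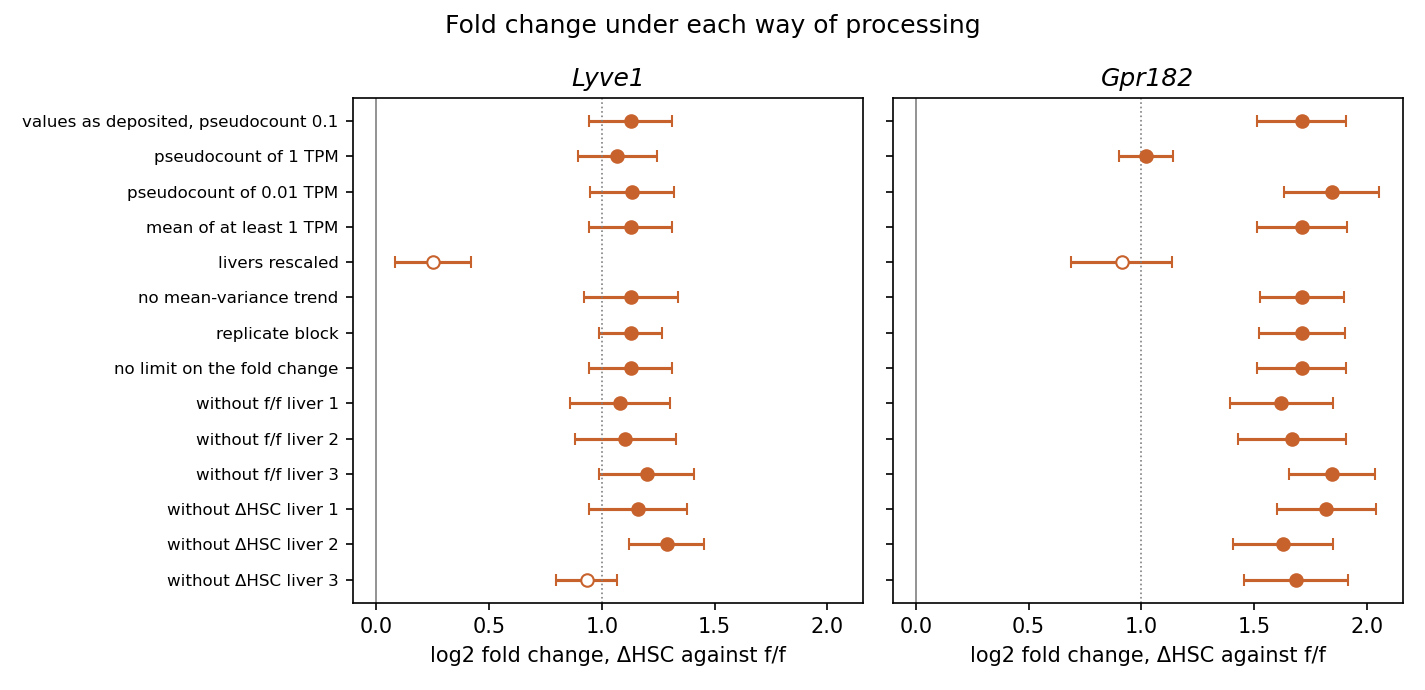
Log2 fold change of *Lyve1* (left) and *Gpr182* (right), *Fgf18* ΔHSC against *Fgf18* f/f, under each way of processing, with standard errors, and filled points where the gene was called. Every value is above 0, and the lowest value of each gene, 0.25 for *Lyve1* and 0.91 for *Gpr182*, is that of the rescaled livers.

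Ratios between genes of the same liver do not depend on the scaling of livers, apart from the pseudocount. *Lyve1* had 18.7, 17.9 and 15.4 times the TPM of *Gpr182* in *Fgf18* f/f livers 1 to 3 and 11.6, 7.38 and 13.2 times in *Fgf18* ΔHSC livers 1 to 3. Every *Fgf18* ΔHSC liver thus had less *Lyve1* for its *Gpr182* than any control liver. On the log2(TPM + 0.1) scale, *Gpr182* minus *Lyve1* was -3.91 ± 0.114 (SD, n = 3) in the controls and -3.33 ± 0.434 (SD, n = 3) in *Fgf18* ΔHSC livers, a difference of 0.58 (exact permutation over the 6 livers, two-sided p = 0.1, which 3 against 3 cannot go below, and 0.25 after Benjamini-Hochberg adjustment over 5 such ratios). With each liver left out in turn the difference ran from 0.34 to 0.75, and was 0.34 without *Fgf18* ΔHSC liver 2. With a pseudocount of 1, which is above the *Gpr182* level of every control liver, it was -0.048 (exact permutation test, p = 0.7).

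The other 4 ratios, chosen after the values had been seen, set each gene against *Cdh5* (VE-cadherin) and *Pecam1* (CD31), adhesion molecules of the junctions between endothelial cells, of which *Pecam1* is also found on leukocytes and platelets. Both junction genes rose in *Fgf18* ΔHSC livers. *Cdh5* had a log2 fold change of 1.24 (SE 0.15, adjusted p = 0.000159 by limma) and *Pecam1* one of 1.79 (SE 0.17, adjusted p = 5.86e-05 by limma). *Gpr182* had 0.574, 0.564 and 0.628 times the TPM of *Pecam1* in the control livers and 0.569, 0.615 and 0.551 times in the *Fgf18* ΔHSC livers. These ranges overlap, and the log2 ratio differed by -0.083 between the groups, about as much as its SD of 0.0643 in control and 0.0774 in *Fgf18* ΔHSC livers (n = 3 each; exact permutation test, p = 0.3, adjusted 0.375). With a pseudocount of 1 this difference was -0.25 (exact permutation test, p = 0.1), and with one of 0.01 it was -0.032 (exact permutation test, p = 0.6). *Lyve1* had 10.7, 10.1 and 9.64 times the TPM of *Pecam1* in the control livers and 6.63, 4.54 and 7.26 times in the *Fgf18* ΔHSC livers, with no overlap. Its log2 ratio to *Pecam1* was lower by 0.67 in *Fgf18* ΔHSC livers (log2 difference -0.67, exact permutation test, p = 0.1, adjusted 0.25), and by 0.20 with a pseudocount of 1 (log2 difference -0.20, exact permutation test, p = 0.4). Against *Cdh5*, *Lyve1* overlapped between the groups, at 1.5, 1.45 and 1.93 times the TPM of *Cdh5* in control livers and 1.55, 1.32 and 1.6 times in *Fgf18* ΔHSC livers (log2 difference -0.11, exact permutation test, p = 0.6). *Gpr182* also overlapped between the groups against *Cdh5* (log2 difference 0.47, exact permutation test, p = 0.3, adjusted 0.375, and -0.12 with a pseudocount of 1).

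**Figure D3:**
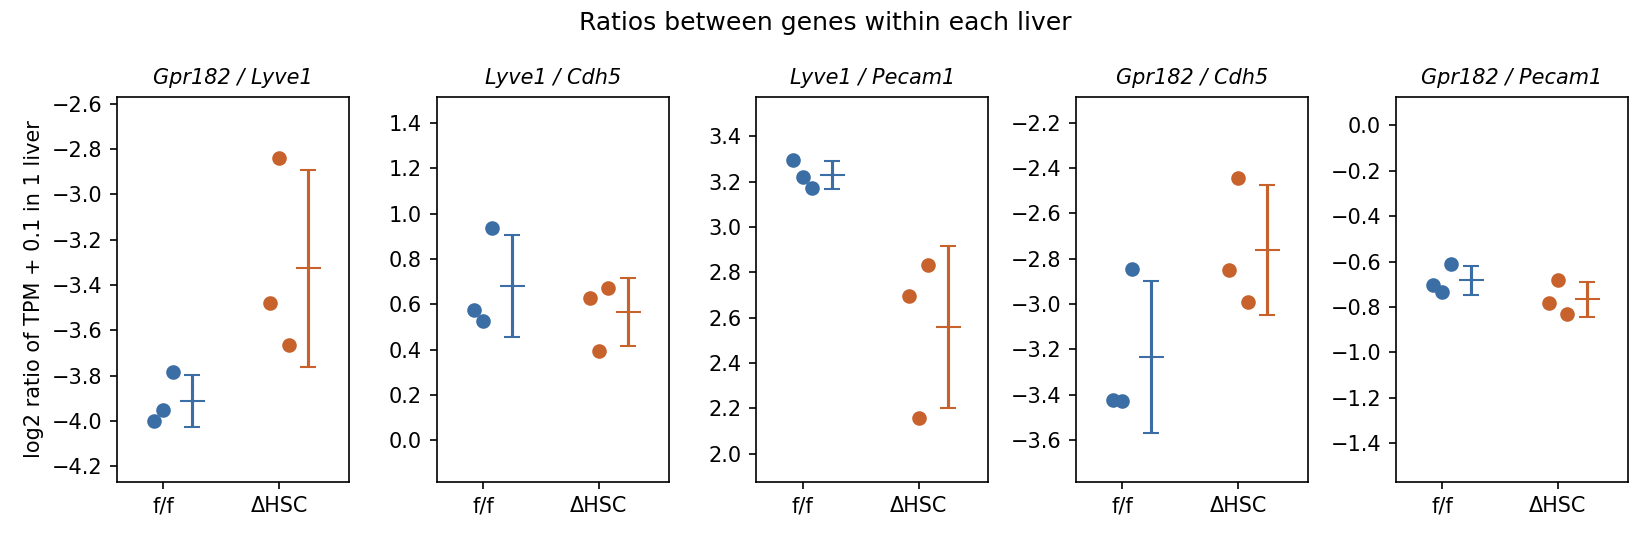
Log2 ratio of TPM + 0.1 between 2 genes of the same liver, for *Fgf18* f/f and *Fgf18* ΔHSC livers, with a point per liver and the mean and SD beside them (n = 3 each). All panels span the same height: *Gpr182* / *Pecam1* overlaps between the groups within a narrow range, while *Gpr182* / *Lyve1* and *Lyve1* / *Pecam1* do not overlap.

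Of 22 sinusoidal endothelial genes, *Lyve1* and *Gpr182* included, 7 had values and the other 15, the scavenger receptor genes *Stab1* and *Stab2* among them, were not analysed here. Of the 7, 6 rose, beside 41.6% called higher over all listed genes, and *Wnt9b* did not pass the limit on the fold change. The 7 had a median log2 fold change of 1.70 beside 0.88 over all listed genes. In rescaled livers all 7 log2 fold changes were above 0 and 2 passed, *Wnt2* and *Rspo3*. *Ehd3*, which encodes an ATPase of endocytic trafficking, had 2.60, 2.43 and 2.53 TPM in the control livers and 8.71, 9.86 and 8.57 TPM in *Fgf18* ΔHSC livers, a log2 fold change of 1.80 (SE 0.12, adjusted p = 1.93e-05 by limma). *Rspo3*, an enhancer of Wnt signaling secreted by endothelial cells around the central vein, had 0.544, 0.697 and 0.665 TPM in control livers and 2.20, 3.13 and 2.55 TPM in *Fgf18* ΔHSC livers (log2 fold change 1.88, SE 0.19, adjusted p = 7.82e-05 by limma). The groups of both genes were far apart relative to their spread.

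The Wnt ligand gene *Wnt2* rose on few reads, 4 to 5 per control liver and 19 to 25 per *Fgf18* ΔHSC liver (log2 fold change 1.70, SE 0.21, adjusted p = 0.0002 by limma). *Wnt9b*, another Wnt ligand of central vein endothelium, had 1 to 4 and 8 to 18 reads and a log2 fold change of 0.92 (adjusted p = 0.00291 by limma). *Plxnc1*, a semaphorin receptor gene, rose by 1.06 on the log2 scale (SE 0.31, adjusted p = 0.0109 by limma), with *Fgf18* ΔHSC liver 2 at 1.80 TPM and the other two at 0.826 and 0.793 TPM. Without *Fgf18* f/f liver 1 or without *Fgf18* ΔHSC liver 2, *Plxnc1* was not called. By the size of the log2 fold change *Gpr182* stood between *Ehd3* and *Wnt2*, and *Lyve1* between *Wnt2* and *Plxnc1*. This order depends on the 0.1 TPM added. By the ratio of group means *Wnt2* (5.73-fold), *Wnt9b* (4.83-fold) and *Rspo3* (4.14-fold) stood above *Gpr182* (3.61-fold) and *Ehd3* (3.59-fold). *Plxnc1* (2.47-fold) and *Lyve1* (2.24-fold) followed. With 0.01 TPM added *Wnt9b* was called too.

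Over 4 endothelial lists together, 27 of 69 genes had values, 20 rose and 1 fell. Over all listed genes 41.6% were called higher and 30% lower, and 57% were called higher among those within 2-fold of the *Gpr182* level. By mean level *Lyve1* was number 2 of the 27 and *Gpr182* number 10, and by log2 fold change *Gpr182* was number 8 and *Lyve1* number 16. The ranks by log2 fold change depend on the 0.1 TPM added, which shrinks the change of genes at low levels most. By the ratio of group means *Wnt2*, *Wnt9b* and *Apln* also stood above *Gpr182*, and *Ehd3* stood below it. Of the 10 genes with values among 25 found in endothelium generally, 8 rose, and *Sox17* (log2 fold change 0.77) and *Klf4* (0.94) were not called. *Sox18*, a transcription factor gene of blood and lymphatic endothelium, had 0, 1 and 3 reads in the control livers and 22, 15 and 25 in the *Fgf18* ΔHSC livers, at least 8.0-fold higher against a floor of 3 reads per liver. *Tek*, the angiopoietin receptor gene, rose by 1.31 and *Ramp2*, a subunit of the adrenomedullin receptor, by 1.27 on the log2 scale (adjusted p = 0.000621 and 0.00217 by limma). In rescaled livers 1 of these 10 genes passed and all 10 log2 fold changes were above 0.

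Of 13 genes of capillary or activated endothelium 8 had values, of which 6 rose, *Icam1* fell and *Vwf* (log2 fold change 0.83) was not called. Over all listed genes 41.6% were called higher and 30% lower. In rescaled livers 3 passed as higher and *Icam1* as lower. *Edn1*, the endothelin precursor gene, rose by 2.21 and *Angpt2*, a context-dependent ligand gene for the *Tek* receptor, by 2.09 on the log2 scale (adjusted p = 0.000314 and 8.29e-05 by limma). *Esm1* rose by 1.74 on 3 to 6 reads per control liver and 5 to 52 per *Fgf18* ΔHSC liver (adjusted p = 0.0125 by limma). *Icam1*, a leukocyte adhesion molecule of activated endothelium and of other liver cells, went from 36.3 ± 3.04 to 10.6 ± 2.63 TPM (SD, n = 3 each; log2 fold change -1.80, adjusted p = 9.39e-05 by limma), opposite to *Lyve1* and *Gpr182*. Of 9 lymphatic endothelial genes 2 had values, *Reln* (log2 fold change 0.92) and *Mmrn1* (0.73), and neither was called. *Reln* was also counted among the HSC genes below.

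**Figure D4:**
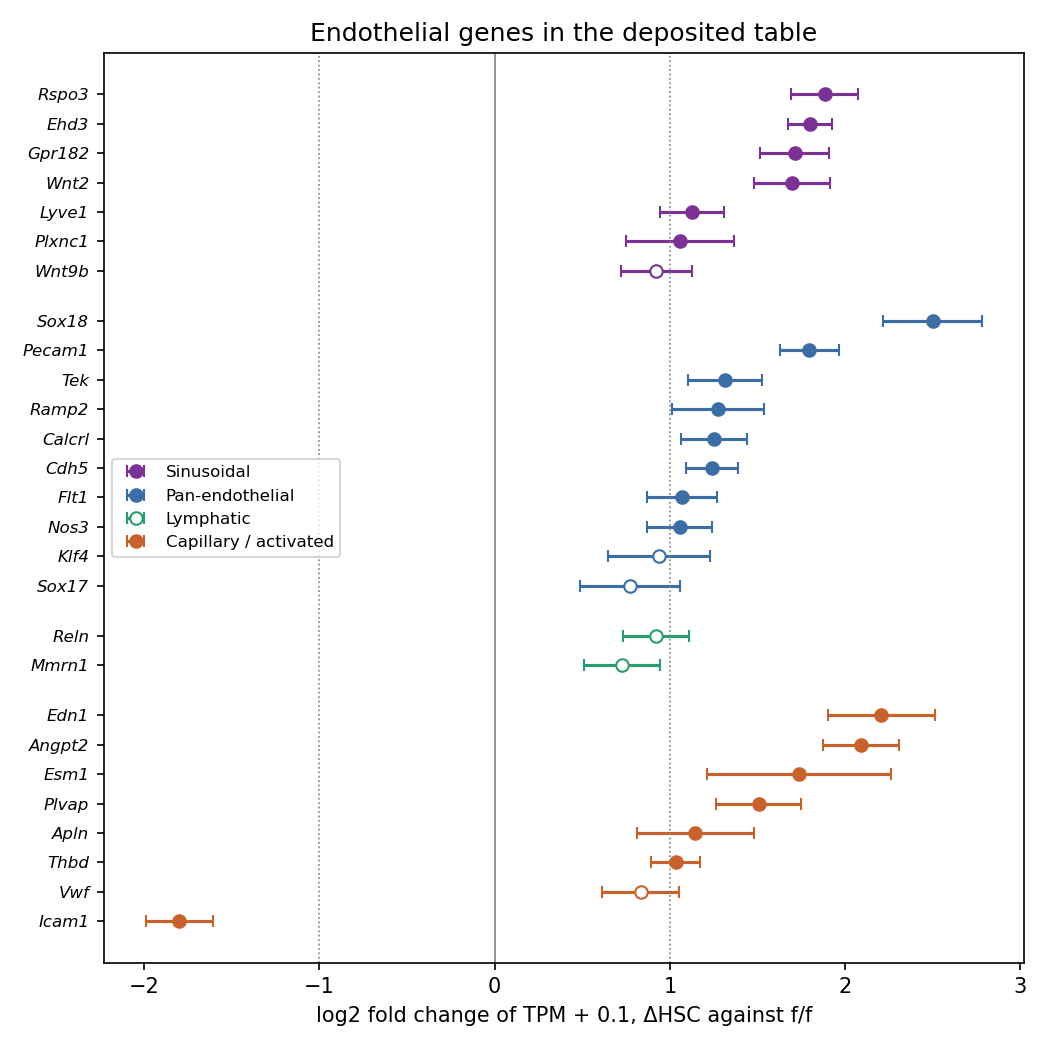
Log2 fold change of TPM + 0.1, *Fgf18* ΔHSC against *Fgf18* f/f, for the 27 endothelial genes with values in the table, with standard errors and filled points for called genes, grouped by list. *Gpr182* (1.71) lies near *Ehd3*, *Rspo3* and *Wnt2*, *Lyve1* (1.13) lies lower in the sinusoidal list, and *Icam1* (-1.80) is the only gene below 0. *Sox18* and *Apln* had at most 3 reads in every control liver. The points depend on the pseudocount, most for genes with a control mean under 0.1 TPM, which are *Sox18*, *Apln*, *Wnt2*, *Wnt9b*, *Esm1* and *Mmrn1*.

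*Lyve1* binds hyaluronan, and 5 of 28 genes of hyaluronan synthesis, breakdown and binding had values. Of these 4 rose, the matrix proteoglycan gene *Vcan* (log2 fold change 1.83), the hyaluronidase family gene *Hyal3* (1.54), the hyaluronan receptor gene *Layn* (1.31) and the link protein gene *Hapln1* (1.06). Reads were few for *Hapln1*, 1 to 9 per control liver and 17 to 25 per *Fgf18* ΔHSC liver. *Layn* had 6 to 16 and 16 to 43 reads, and *Hyal3* 9 to 21 and 29 to 54. *Itih3*, a heavy chain gene of the hepatocyte-secreted inter-alpha-trypsin inhibitor that attaches to hyaluronan, fell from 509 ± 46.7 to 255 ± 51.3 TPM (SD, n = 3 each; log2 fold change -1.01, adjusted p = 0.000567 by limma). Over all listed genes 41.6% were called higher and 30% lower. In rescaled livers *Vcan* was still called higher and *Itih3* lower, and the other 3 were not called.

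*Gpr182* removes chemokines, and 6 of 11 genes of atypical chemokine receptors, of chemokines it binds and of their signaling receptors had values. The ligand gene *Cxcl13* and the receptor genes *Cxcr4* and *Ackr2* rose, and the receptor genes *Ccrl2* and *Ackr4* fell. *Ackr2*, a scavenger of inflammatory CC chemokines, rose from 1.63 ± 0.102 to 5.56 ± 1.28 TPM (SD, n = 3 each; log2 fold change 1.69, adjusted p = 9.39e-05 by limma). *Ackr4*, a scavenger of homeostatic chemokines, fell from 15.1 ± 1.06 to 6.84 ± 0.992 TPM (SD, n = 3 each; log2 fold change -1.14, adjusted p = 0.000185 by limma). *Ccrl2* fell with a log2 fold change of -1.27 (adjusted p = 0.000629 by limma). *Cxcr5*, the signaling receptor for *Cxcl13*, had a log2 fold change of 0.86 and was not called. In rescaled livers *Ackr2* was not called and the other 4 kept their calls. The atypical receptors with values thus did not all move as *Gpr182* did.

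Some markers of other liver cells rose as *Lyve1* and *Gpr182* did and others fell, and their part in the 2 differences was not tested. Only genes selected for a difference between these livers had values. The summed levels below cover those genes alone and do not measure the amount of a cell type. Over all listed genes 41.6% were called higher and 30% lower. Of 17 Kupffer cell genes 6 had values, with a summed level of 14.7 to 17.7 TPM in control and 30.4 to 45.1 TPM in *Fgf18* ΔHSC livers. *Cd68*, *Fcna*, *C1qa* and *C1qc* rose, *Spic* fell and *Adgre1* (log2 fold change 0.82) was not called. In rescaled livers none of them was called higher and *Spic* alone was called lower. Of 7 genes of *Lyve1*-positive tissue macrophages *F13a1* alone had values, and it rose by 2.64 on the log2 scale (adjusted p = 0.000148 by limma). Of 20 HSC genes 11 had values, 9 rose and none fell, and *Lrat* (log2 fold change 0.88) and *Reln* (0.92) were not called. *Acta2*, *Pdgfrb*, *Hand2* and *Rgs5* had the largest log2 fold changes. The sum of the 11 went from 10.8 to 12.8 TPM in control livers to 27.5 to 40.3 TPM in *Fgf18* ΔHSC livers. In rescaled livers 3 of the 11 were called higher, *Acta2*, *Pdgfrb* and *Hand2*. Of 6 cholangiocyte genes 5 had values (summed level 28.6 to 30.9 against 52.0 to 81.0 TPM). *Tspan8*, *Spp1* and *Epcam* rose, *Sox9* fell and *Krt7* (log2 fold change 0.82) was not called. Of 13 neutrophil genes 6 had values, the granule genes *Ngp*, *Camp* and *Ltf* fell and *Mmp8*, *Cxcr2* and *Csf3r* rose (20.8 to 23.8 against 19.0 to 47.0 TPM). The 2 of 14 hepatocyte genes with values, *Cyp2e1* and *Glul*, fell, from a sum of 2012 to 2287 TPM to one of 597 to 831 TPM. In rescaled livers *F13a1*, *Cyp2e1* and *Glul* kept their calls, as did the called cholangiocyte and neutrophil genes except *Epcam*, *Cxcr2* and *Csf3r*. No marker with values was at 0 in every liver.

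The profiles over the 6 livers most like that of *Lyve1*, by Pearson's r of log2(TPM + 0.1) among the 1423 genes that averaged 1 TPM or more, were those of *Fcgr3*, an immunoglobulin Fc receptor gene of myeloid cells (r = 0.997), *Tgfbi*, a secreted matrix protein (0.996), *Slc16a3*, a lactate transporter (0.996), *Ms4a6c* (0.995) and *Tgfb1*, a growth factor (0.995). Like *Lyve1*, all 5 were highest in *Fgf18* ΔHSC liver 3 and lowest among the *Fgf18* ΔHSC livers in liver 2, an order that choosing genes by r favours. *Fcgr3*, for example, had 3.40, 3.23 and 4.19 TPM in control livers and 8.41, 6.67 and 11.6 TPM in *Fgf18* ΔHSC livers. Those most like *Gpr182* were *Btc*, a ligand of the epidermal growth factor receptor (r = 0.999), *Sparc*, a matricellular protein (0.998), *Pkd2*, a cation channel (0.998), *Pecam1* (0.998) and *Magi3*, a junction scaffold (0.997). *Sparc* had 2.75, 2.67 and 3.36 TPM in control livers and 8.78, 11.4 and 10.3 TPM in *Fgf18* ΔHSC livers. No gene was among the 5 of both.

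These r are descriptions over 6 livers that form 2 groups, in a table of genes chosen for differing between them: 9.77% of the 1423 genes had an r above 0.95 with *Lyve1* and 18.6% with *Gpr182*. *Lyve1* and *Gpr182* had an r of 0.925 with each other, and 248 genes were closer to *Lyve1* than *Gpr182* was. In the deviations from the group means, r was 0.168 between *Lyve1* and *Gpr182*, 0.705 between *Lyve1* and *Cdh5*, 0.401 between *Lyve1* and *Pecam1*, 0.957 between *Gpr182* and *Pecam1*, and -0.156 between *Gpr182* and *Cdh5*. Each of these r rests on 6 deviations, and counting error leaves the order of *Gpr182* within a group unresolved. *Pecam1* was also among the genes found most like *Gpr182*, which favours a high r between them.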

How the data were processed

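RNA-seq of 6 mouse livers was analysed, 3 *Fgf18* f/f and 3 *Fgf18* ΔHSC, grouped by their titles. Per the labels and methods, the authors made stranded mRNA libraries, used HISAT2 2.1.0 for alignment (GRCm38) and featureCounts 1.6.3 for counting, and compared genotypes with DESeq2. The submitters' processing notes also name cutadapt 2.5. The deposited table holds 3201 selected genes with a value per liver, taken as TPM, beside the authors' fold change, p-values and direction, whose values were not used as results. Multiplied by joined exon length (GENCODE M21, 3196 genes matched), 92.2 to 92.6% of the values under 5000 reads were whole reads within 0.02, and 1 read on 1 kb was worth 0.0374 to 0.0655 TPM. Library totals are unknown. The recovered reads on the listed genes numbered 3148787 to 4852004 in *Fgf18* f/f and 1574336 to 2094288 in *Fgf18* ΔHSC livers, and their TPM summed to 71383 to 79268 and 38890 to 39911.

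Log2(TPM + 0.1) was compared with limma 3.58.1 in R 4.3.3 (lmFit, eBayes with trend) over all 3201 genes with no filter and no block, and p-values were adjusted by Benjamini-Hochberg. The fit was tested on simulated data in which most genes did not differ. That test does not show how the fit behaves on genes that were all selected for a difference. Ratios were compared by two-sided exact permutation tests in Python 3.11.15. The labels do not name a mouse for each liver, though the study describes its replicates as independent. The p-values measure the spread between these samples. The members and gene lists were chosen with earlier results of these data known. Named genes were the members, all sinusoidal list genes with values, at most 4 called genes per other list by size of change, and the 5 most similar profiles per member. *Cdh5*, *Itih3*, *Ackr4*, *C1qc*, *Cxcr2*, *Csf3r* and genes named as not called lie outside this rule and were chosen after their values were seen. Alternatives were other pseudocounts, a filter at 1 TPM, rescaled livers, no trend, a replicate block, no fold limit and each liver left out.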

Additional observations from a re-analysis of the deposited data

How the results depend on the processing

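The log2 fold changes of *Lyve1* and *Gpr182* were above 0 under every alternative tried. *Lyve1* was not called in rescaled livers (0.25) or without *Fgf18* ΔHSC liver 3, and ranged from 0.93 to 1.29 with each liver left out. *Gpr182* was not called in rescaled livers (0.91). The rescaling was set by a table in which 2083 of 3201 genes had a positive log2 fold change before it. It left a median of 0.30 over all listed genes, above the value of *Lyve1*. The sinusoidal list had 6 genes called, 2 in rescaled livers, and 5 to 7 with livers left out. Over the table, 1333 genes were called higher and 961 lower (58.1% higher). With a pseudocount of 1 they were 266 and 566 (32%), with genes of at least 1 TPM 522 and 787 (39.9%), in rescaled livers 353 and 1113 (24.1%), and with no limit on the fold change 2005 higher. *Gpr182* minus *Lyve1* reversed with a pseudocount of 1 (-0.048), as did *Gpr182* minus *Cdh5* (-0.12), since this pseudocount exceeds the *Gpr182* level of the control livers. With it *Lyve1* minus *Pecam1* went from -0.67 to -0.20 and *Gpr182* minus *Pecam1* from -0.083 to -0.25. With livers left out *Gpr182* minus *Lyve1* ranged from 0.34 to 0.75 and *Gpr182* minus *Cdh5* from 0.31 to 0.66, both lowest without *Fgf18* ΔHSC liver 2. *Lyve1* minus *Cdh5* ranged from -0.19 to 0.015 with livers left out, above 0 only without *Fgf18* f/f liver 3. The replicate numbers are shared by the groups. Deviations of same-numbered livers correlated by 0.006 to 0.057 and those of different-numbered livers by -0.092 to 0.058. Not every liver was closest to its own number, but 3 livers per group cannot settle whether livers were paired. With the replicate block 1337 genes were called higher and 963 lower, and *Lyve1* (log2 fold change 1.13), *Gpr182* (1.71) and 6 sinusoidal genes were called. The difference of *Gpr182* minus *Lyve1* was 0.58 with the block too. Counting error limits genes with few reads, such as *Wnt2*, *Wnt9b* and *Sox18*.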
